A study of Mus musculus with 20 samples.

Results

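The neutrophil granule genes described here are 10 genes that a developing neutrophil switches on at successive stages: the primary (azurophil) granule genes Mpo, Elane, Prtn3 and Ctsg, the secondary (specific) granule genes Ltf, Camp, Ngp and Mmp8, and the late genes Mmp9 and Cxcr2. They were picked out by symbol from the 55486 genes of the count tables, and all 10 were found in both tables. The samples were whole bone marrow and kidney from mice given oxaliplatin, a DNA-crosslinking platinum agent used against tumours, or the vehicle alone, with 5 libraries for each tissue and treatment and 20 in all. The mice were C57BL/6, 10 weeks of age when treatment began. The methods name both sexes, but all 20 libraries held at least 396 counts of each Y-linked gene examined, so the libraries did not bear out that females were among them. Tibia and femur supplied the marrow, 6 days following the final injection. The oxaliplatin groups received 10 mg/kg in 5% dextrose and the vehicle groups received 5% dextrose, each for 8 weeks. No transgene or deletion was involved, and all groups shared the dextrose injections. The labels do not say whether a marrow library and a kidney library with the same number came from the same mouse.

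Neutrophils are made in bone marrow through the promyelocyte, myelocyte, metamyelocyte and band stages. Promyelocytes make the primary granule proteins, which include myeloperoxidase and the serine proteases of the elastase family. Myelocytes and metamyelocytes make the secondary granule proteins, such as lactoferrin and cathelicidin, and later cells make gelatinase granules and the chemokine receptor that guides mature neutrophils out of the marrow. Transcription of the granule genes is known to depend on PU.1 and on factors of the C/EBP family, with C/EBPε needed for the secondary granules.

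Promoter sequences (250 bases before to 50 bases after the gene's start, from RefSeq on GRCm38.p6) were found for 9 of the 10 genes, Mmp9 being the gene without an entry. Each window was searched on both strands for 2 motifs, GAGGAAG, which holds the core that PU.1 binds, and TTGCNNAA, which resembles one side of a C/EBP site, and matches to the 2 overlapped in 0 of the 9 windows. GAGGAAG was found in 4 of 4 primary promoters and in 1 of 4 secondary promoters (Mmp8), and 13.6% of all 32851 promoter windows held it. TTGCNNAA was found in 3 of 4 secondary promoters and in 0 of 4 primary promoters, against 10.8% of all windows. Neither motif was found in the Camp or Cxcr2 window. The motifs were chosen after the promoters had been looked at, and a match describes letters only. The stretches that hold a match are shown so that the letters of the stages can be compared, with the matched bases in capitals. All are printed 5′ to 3′ on the strand of the gene, and the matches of Ltf and of the distal Mmp8 stretch lie on the opposite strand. A further TTGCNNAA match of Ngp lies past the start of an annotated exon and is not shown. All lie outside annotated exons; the Prtn3 stretch lies in an intron of a longer Prtn3 transcript and the others lie upstream of the gene.
Mpo (chr11:87793534-87793580, plus strand): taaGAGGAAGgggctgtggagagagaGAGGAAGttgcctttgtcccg
Elane (chr10:79886177-79886246, plus strand): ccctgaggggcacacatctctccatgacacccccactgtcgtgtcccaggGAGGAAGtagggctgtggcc
Prtn3 (chr10:79879522-79879613, plus strand): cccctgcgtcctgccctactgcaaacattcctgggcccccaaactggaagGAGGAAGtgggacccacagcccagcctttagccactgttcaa
Ctsg (chr14:56102734-56102824, minus strand): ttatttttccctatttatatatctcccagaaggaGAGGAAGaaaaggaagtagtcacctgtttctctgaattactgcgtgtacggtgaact
Ltf (chr9:111019167-111019270, plus strand): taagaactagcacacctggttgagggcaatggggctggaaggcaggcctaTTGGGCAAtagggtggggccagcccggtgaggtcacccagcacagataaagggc
Ngp (chr9:110419620-110419727, plus strand): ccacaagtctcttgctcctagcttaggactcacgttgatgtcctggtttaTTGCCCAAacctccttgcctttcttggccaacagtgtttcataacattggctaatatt
Mmp8, distal (chr9:7558179-7558265, plus strand): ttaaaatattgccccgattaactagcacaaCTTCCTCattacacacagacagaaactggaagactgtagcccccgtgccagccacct
Mmp8, proximal (chr9:7558360-7558428, plus strand): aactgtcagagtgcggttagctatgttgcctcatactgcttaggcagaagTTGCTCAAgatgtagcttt

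Marrow libraries held between 30660153 and 41140527 counts and kidney libraries between 24393007 and 30925430. Values are CPM, counts relative to a library size scaled by TMM, and 3 counts, taken as the floor, corresponded to 0.0668 to 0.0975 CPM in marrow and 0.0900 to 0.130 CPM in kidney, which covers counting error only. The tissues matched their labels, since the summed level of 8 kidney marker genes ran from 15527 to 27878 CPM in kidney and was at most 11.7 CPM in marrow. Among the marrow libraries, oxaliplatin-treated mouse 3 stood apart, being the lowest of 10 libraries for 24.7% and the highest for 20.4% of the 22363 tested genes, and the log2 fold change of each granule gene is therefore also given without it. In whole marrow, fewer cells of a type and less RNA per cell cannot be told apart.

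The granule genes were among the abundant transcripts of vehicle-treated marrow. Together they took 1.41% to 1.67% of all counts in vehicle-treated mice and 0.829% to 2.01% in oxaliplatin-treated mice. Per kilobase of exon, Ngp was the highest in vehicle-treated mice at 4746 ± 358 CPM per kb (SD, n = 5), followed by Camp at 2202 ± 159 and Ltf at 1178 ± 88.4. Elane at 684 ± 32.3 CPM per kb exceeded Mpo at 493 ± 35.5. Mmp9 followed at 326 ± 30.6 and Prtn3 at 247 ± 22.1 CPM per kb. Mmp8 at 201 ± 28.7 and Ctsg at 176 ± 14.8 CPM per kb lay within their spread of each other. Cxcr2 was the lowest at 45.8 ± 6.78 CPM per kb, which places a receptor below every granule protein on this scale.

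The question in marrow was whether 8 weeks of oxaliplatin altered these genes. With calls made at an adjusted p under 0.05 and beyond 1.5-fold, 0 of 10 were called, against 23.3% of the 22363 tested genes (edgeR quasi-likelihood test with Benjamini-Hochberg adjustment, 5 mice per group). DESeq2 also called 0 of the 10, and 1 of the 10 had an unadjusted p under 0.05. That gene was Ctsg, which was higher after oxaliplatin at an adjusted p of 0.0247, while 33.1% of tested genes had an adjusted p under 0.05 at any fold. The median log2 fold change was -0.18 over the 10 genes and -0.038 over all tested genes. The treated mice were widely spread for these genes, with a median SD ratio of log2 CPM (treated over vehicle) of 5.14 over the 10, and so they were for other secondary-stage (6.38) and late (5.13) neutrophil genes. A p that misses the threshold does not show that the groups were alike. The intervals of the secondary and late genes were wide, the narrowest running from -0.80 to 0.38 on the log2 scale (Camp). With the mean log2 CPM of 4 Y-linked genes added to the edgeR fit as a covariate, 5 of 10 were called, Ctsg higher and Ltf, Camp, Ngp and Mmp8 lower (log2 fold changes 0.70, -1.20, -0.75, -0.91 and -1.38). Those Y-linked genes were lowest in oxaliplatin-treated mouse 5, at a mean log2 CPM of 4.61 against 5.00 to 5.42 in the other marrow libraries.

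**Figure D1:**
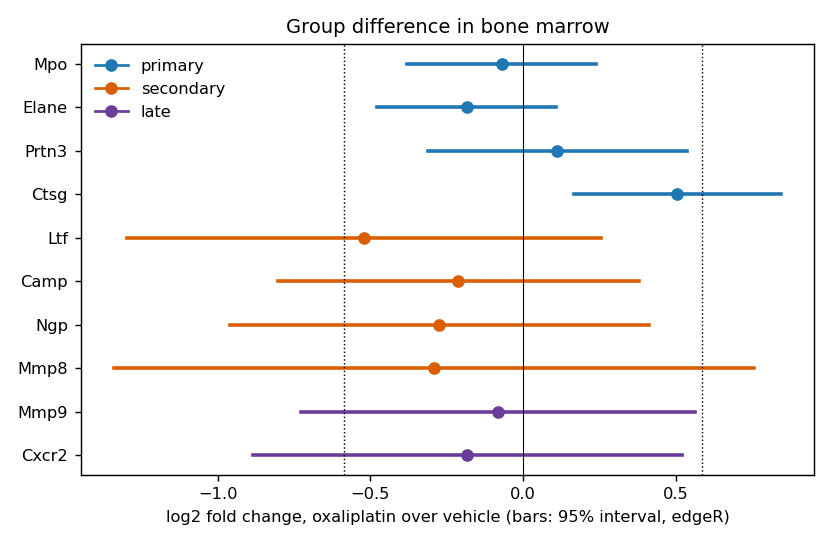
Log2 fold change of each granule gene in bone marrow, oxaliplatin over vehicle (x axis, log2 units), with its 95% interval from edgeR and the genes in rows, 5 mice per group. Dotted lines mark 1.5-fold either way; the interval of Ctsg alone leaves out 0, and the interval of Mmp8 is the widest, from -1.34 to 0.76.

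Mpo (ENSMUSG00000009350, chromosome 11 from 87793581 to 87804413, 15 exons) encodes myeloperoxidase, the enzyme that forms hypochlorous acid in the phagosome. Its level in vehicle-treated mice 1 to 5 was 1545, 1613, 1727, 1865 and 1691 CPM. In oxaliplatin-treated mice 1 to 5 it was 1417, 1297, 2101, 1807 and 1419 CPM. Treated mice 1, 2 and 5 lay below every vehicle-treated mouse, treated mouse 3 lay above all of them, and the groups overlapped. The groups differed by a log2 fold change of -0.070 (95% interval -0.38 to 0.24, edgeR adjusted p = 0.751), and with library size alone as the scaling it was 0.083. Without oxaliplatin-treated mouse 3 it was -0.18 (edgeR adjusted p = 0.258).

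Elane (ENSMUSG00000020125, chromosome 10 from 79886247 to 79888215, 5 exons) encodes neutrophil elastase. Vehicle-treated mice had 646, 647, 676, 724 and 671 CPM. Oxaliplatin-treated mice had 522, 528, 826, 569 and 516 CPM. Thus 4 of the 5 treated animals had less than any vehicle-treated animal, and mouse 3 had more than any. The log2 fold change was -0.18 (95% interval -0.48 to 0.11, edgeR adjusted p = 0.328). Without oxaliplatin-treated mouse 3 it was -0.33 with an edgeR adjusted p of 0.00729, a size still under 1.5-fold. With all mice kept, limma voom with sample quality weights gave -0.29 (limma adjusted p = 0.00728), also under 1.5-fold. That setting was chosen after seeing the data.

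Prtn3 (ENSMUSG00000057729, chromosome 10 from 79874476 to 79883174, 6 exons in the merged model) encodes proteinase 3 and lies 3073 bases upstream of Elane. The 5 vehicle-treated mice had 385, 393, 475, 436 and 451 CPM. The 5 oxaliplatin-treated mice had 338, 354, 728, 532 and 362 CPM. Treated mice 3 and 4 were above all vehicle-treated mice and the other 3 were below them, so the treated values lay on both sides of the vehicle range. The log2 fold change of 0.11 (95% interval -0.31 to 0.54, edgeR adjusted p = 0.705) became -0.11 without oxaliplatin-treated mouse 3. The 5′ end of Prtn3 overlaps Plppr3 on the other strand, and without stated strand use in the counting, reads in that stretch cannot be assigned to either; Plppr3 was at 36.1 ± 4.00 CPM with vehicle and 38.8 ± 7.73 CPM with oxaliplatin (SD, n = 5).

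Ctsg (ENSMUSG00000040314, chromosome 14 from 56099881 to 56102574, 5 exons) encodes cathepsin G, a protease of the same granule. In vehicle-treated mice it was at 161, 174, 182, 198 and 194 CPM. In oxaliplatin-treated mice it was at 230.3, 199.5, 373, 279 and 209 CPM, so that all 5 lay above every vehicle-treated mouse, although mouse 2 did so by little. Such separation in either direction held for 24.9% of tested genes. The mean went from 182 ± 15.2 to 258 ± 71.2 CPM (SD, n = 5), 0.51 higher on the log2 scale (95% interval 0.17 to 0.85, edgeR adjusted p = 0.0247). With single mice left out, the log2 fold change ran from 0.34 to 0.62 and the adjusted p from 0.0121 to 0.0685; it was above 0.05 without vehicle-treated mouse 1, 2 or 3 or oxaliplatin-treated mouse 4 (adjusted p = 0.0685, 0.0603, 0.0530 and 0.0545). The lowest of these fold changes, 0.34, was the one without oxaliplatin-treated mouse 3 (edgeR adjusted p = 0.0231).

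Ltf (ENSMUSG00000032496, chromosome 9 from 111019271 to 111042767, 18 exons) encodes lactoferrin, the iron-binding protein of the secondary granule. Vehicle-treated mice were at 3534, 4104, 4156, 4289.9 and 4239 CPM. Oxaliplatin-treated mice were at 3890.2, 2933, 842, 1713 and 4799.6 CPM. Treated mice 2, 3 and 4 lay under the vehicle range and mouse 5 lay over it. The means were 4065 ± 305 and 2836 ± 1598 CPM (SD, n = 5), and the log2 fold change was -0.52 (95% interval -1.30 to 0.26, edgeR adjusted p = 0.298). It was -0.29 without oxaliplatin-treated mouse 3 (edgeR adjusted p = 0.384).

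Camp (ENSMUSG00000038357, chromosome 9 from 109847379 to 109849617, 4 exons) encodes the antimicrobial peptide precursor cathelicidin. Its vehicle values were 1492, 1722, 1629, 1817 and 1687 CPM. The oxaliplatin values were 1820.3, 1838, 690.0, 803 and 2056 CPM. Mice 1, 2 and 5 of the treated group lay above the vehicle range and mice 3 and 4 lay well below it. On the log2 scale the difference was -0.21 (95% interval -0.80 to 0.38, edgeR adjusted p = 0.598), and leaving out oxaliplatin-treated mouse 3 brought it to -0.034.

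Ngp (ENSMUSG00000032484, chromosome 9 from 110419747 to 110423012, 4 exons) encodes neutrophilic granule protein, a cystatin-related protein. It was measured at 5183, 5866, 5677, 6399 and 5871 CPM with vehicle. With oxaliplatin it was measured at 6232, 5898, 1839, 2621 and 7395 CPM. Treated mice 1 and 2 were inside the vehicle range, 3 and 4 below it and 5 above it. This gave a log2 fold change of -0.27 (95% interval -0.96 to 0.41, edgeR adjusted p = 0.553), which became -0.066 without oxaliplatin-treated mouse 3.

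Mmp8 (ENSMUSG00000005800, chromosome 9 from 7558456 to 7568485, 10 exons) encodes neutrophil collagenase. Values in vehicle-treated mice were 405, 489.8, 438, 529 and 579.6 CPM. Values in oxaliplatin-treated mice were 465, 489.2, 78.4, 169.8 and 792 CPM, a 10.1-fold range against 1.43-fold with vehicle. Over all tested genes the median range in treated mice was 1.90-fold. Between the groups the log2 difference was -0.29 (95% interval -1.34 to 0.76, edgeR adjusted p = 0.686), and it was -0.028 when oxaliplatin-treated mouse 3 was left out.

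Mmp9 (ENSMUSG00000017737, chromosome 2 from 164940780 to 164955850, 15 exons) encodes gelatinase B. In vehicle-treated mice it was at 1022, 1066, 1239, 1175 and 1273 CPM. In oxaliplatin-treated mice it was at 1464, 1127, 425, 722 and 1714 CPM, with mice 1 and 5 above and mice 3 and 4 below the vehicle range. Its log2 fold change was -0.083 (95% interval -0.73 to 0.56, edgeR adjusted p = 0.862), and 0.12 without oxaliplatin-treated mouse 3. Mmp9 is also made by osteoclasts, and 5 of 7 osteoclast markers were called higher after oxaliplatin, with a summed level of 144 to 205 CPM in vehicle-treated and 208 to 438 CPM in oxaliplatin-treated mice. The osteoclast sum was highest in mouse 3 at 438 CPM, where Mmp9 was lowest, and lowest of the treated mice in mouse 5 at 208 CPM, where Mmp9 was highest. The part of osteoclasts in the Mmp9 levels was not tested.

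Cxcr2 (ENSMUSG00000026180, chromosome 1 from 74153989 to 74161246, 2 exons) encodes the chemokine receptor of mature neutrophils. Vehicle-treated mice had 111, 129, 147, 143 and 167 CPM. Oxaliplatin-treated mice had 157, 142, 42.6, 84.6 and 189 CPM, in the same order of mice as Mmp9. Its log2 fold change was -0.18 (95% interval -0.88 to 0.52, edgeR adjusted p = 0.709), and 0.037 without oxaliplatin-treated mouse 3.

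**Figure D2:**
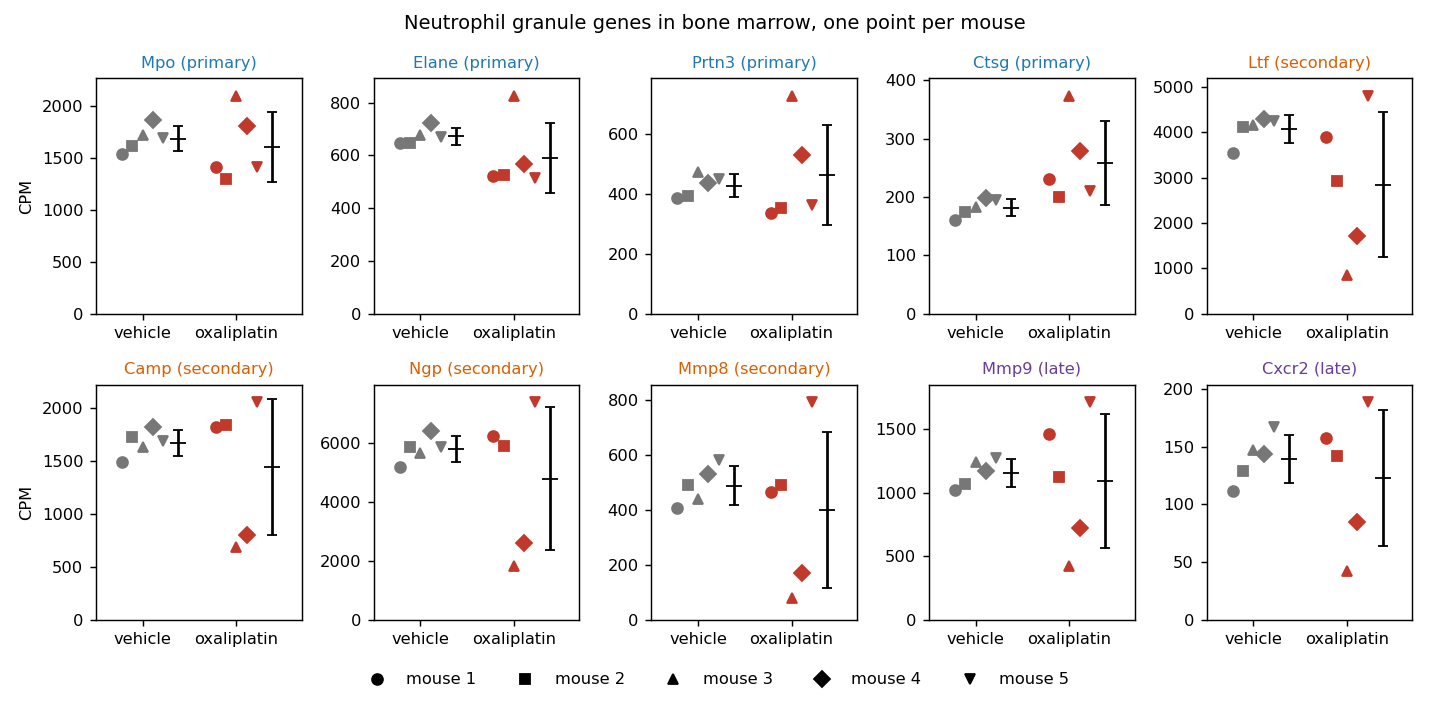
CPM (linear y axis from 0) of the 10 granule genes in bone marrow, 1 point per mouse with its symbol giving the mouse number, grey for vehicle and red for oxaliplatin; bars to the right of each group give the mean and SD of 5 mice. Treated mouse 3 (upward triangle) is the highest point in the 4 primary panels and the lowest in the 6 secondary and late panels.

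The spread between mice was wider after oxaliplatin for all 10 genes with all 5 treated mice included. The SD of log2 CPM over the 5 treated mice, divided by that over the 5 vehicle-treated mice, was 2.82 for Mpo, 3.01 for Ctsg, 3.72 for Prtn3 and 4.30 for Elane. It was 3.99 for Cxcr2, 5.97 for Mmp9, 6.53 for Mmp8, 7.10 for Camp, 8.06 for Ngp and 8.91 for Ltf. A ratio above 1 was common, at 74.7% of tested genes with a median ratio of 1.51, so the widening itself was shared with most of the transcriptome. Its size for the secondary genes was less common, since 1.57% of tested genes reached the ratio of Mmp8, the smallest of the 4, but it was not particular to them, as the median ratio was 6.38 over 13 other secondary-stage genes. Without oxaliplatin-treated mouse 3 the ratio fell below 1 for Elane (0.963), was 1.74 to 2.33 for the other primary genes, 4.52 to 6.10 for the secondary genes, 3.98 for Mmp9 and 2.28 for Cxcr2, against a median of 1.19 over all tested genes. This setting was chosen after seeing the data. These ratios describe 5 mice per group and were not tested.

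**Figure D3:**
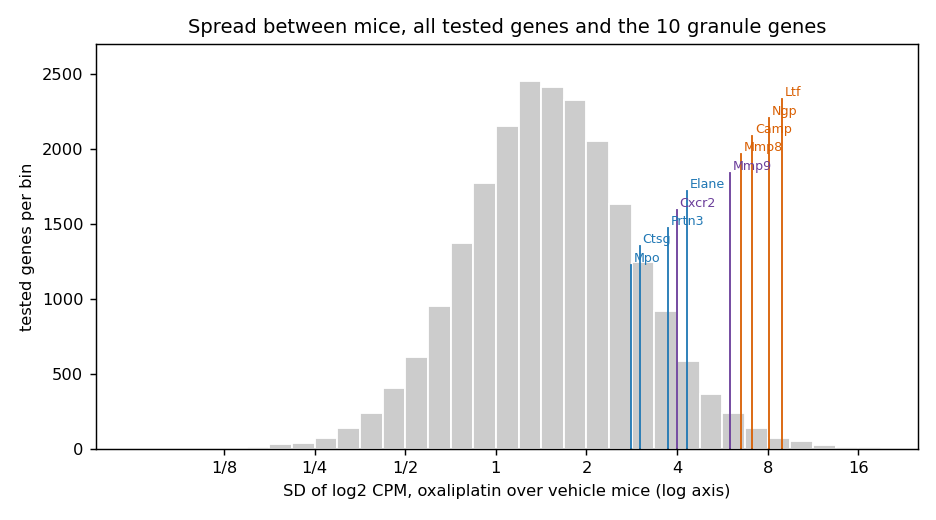
Ratio of the SD of log2 CPM over 5 oxaliplatin-treated mice to that over 5 vehicle-treated mice (x axis, log scale), with the number of tested genes per bin as grey bars and each granule gene as a vertical line whose height only separates the labels. The median of all tested genes is 1.51, and the 10 lines run from 2.82 (Mpo) to 8.91 (Ltf).

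The treated mice did not spread in the same order at each stage. Oxaliplatin-treated mouse 3 was the highest of all 10 mice for 4 of 4 primary genes and the lowest for 4 of 4 secondary and 2 of 2 late genes. Mouse 5 of the treated group was the highest for 4 of 4 secondary and 2 of 2 late genes. Mouse 4 was below every vehicle-treated mouse for the same 6 genes. As a mean of log2 CPM, the secondary genes exceeded the primary genes by 1.87, 2.04, 1.84, 1.95 and 1.98 in the 5 vehicle-treated mice, a mean of 1.94 ± 0.080 (SD, n = 5). The same difference was 2.12, 2.08, -0.62, 0.50 and 2.51 in oxaliplatin-treated mice 1 to 5. Mouse 3 was thus the library in which primary transcripts outweighed secondary transcripts on this scale, mouse 4 lay between it and the rest, and mice 1, 2 and 5 lay above the vehicle range. The late genes, measured against the primary genes, lay from -0.56 to -0.29 in vehicle-treated mice. They were at -0.029, -0.23, -2.62, -1.34 and 0.23 in the treated mice, in the same arrangement. The gap between the late and the secondary genes was wider than either of these with vehicle but varied less between treated mice, with late minus secondary at -2.52 to -2.25 with vehicle and -2.31 to -1.84 with oxaliplatin.

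Ratios of raw counts within a library do not depend on the scaling between libraries. Ltf counts divided by Mpo counts gave 2.29 to 2.54 in the vehicle-treated mice. In oxaliplatin-treated mice 1 to 5 the ratio was 2.75, 2.26, 0.401, 0.948 and 3.38. The counts behind the lowest value were 36141 for Ltf and 90135 for Mpo, so counting error was small beside these differences. Mmp8 over Ctsg ran from 2.40 to 2.98 with vehicle and was 2.02, 2.45, 0.210, 0.609 and 3.78 with oxaliplatin. Both ratios placed treated mice 3 and 4 lowest and mouse 5 highest.

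**Figure D4:**
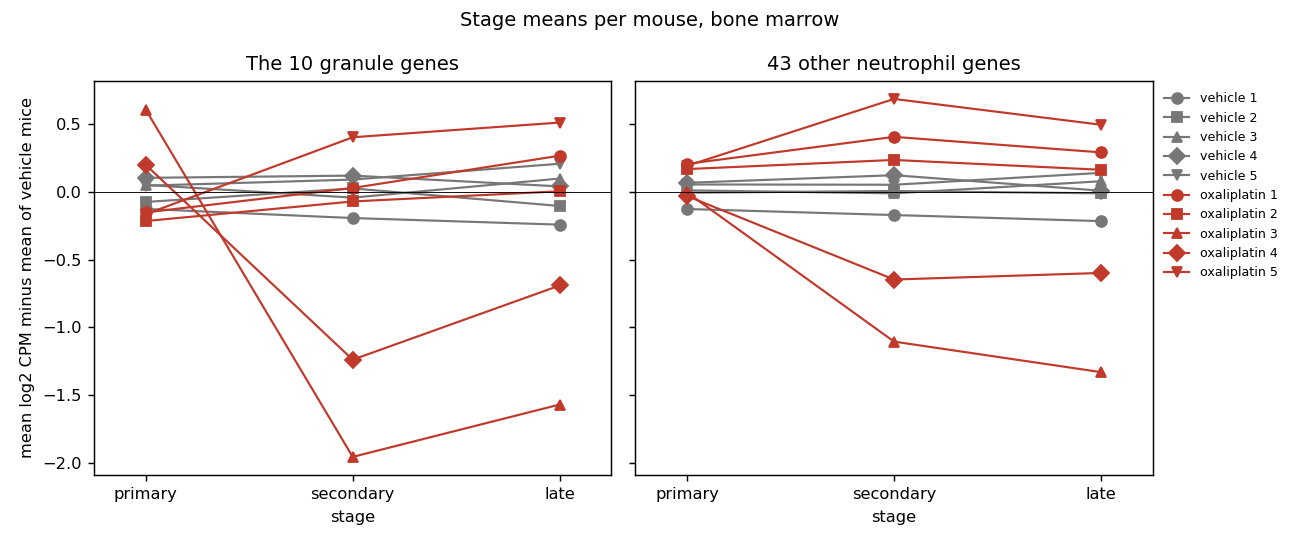
Mean log2 CPM of the genes of each stage in each mouse, after subtracting the mean of the 5 vehicle-treated mice (y axis, log2 units; x axis, stage), for the 10 granule genes on the left and 43 other neutrophil genes on the right; grey lines are vehicle-treated mice and red lines oxaliplatin-treated mice. The lines of treated mice 3 and 4 start above the vehicle mean for the primary granule genes and lie far below it for secondary and late genes, and treated mouse 5 lies above the vehicle-treated mice in both later stages.

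Within a stage the genes also moved relative to each other. Ctsg counts divided by Elane counts were 0.249 to 0.290 in the vehicle-treated mice and 0.442, 0.378, 0.452, 0.490 and 0.406 in the treated mice. Every treated mouse was above every vehicle-treated mouse, including mice 1, 2 and 5, in which Elane and Mpo were below the vehicle range. Elane over Prtn3 was 1.42 to 1.68 with vehicle and 1.54, 1.49, 1.13, 1.07 and 1.42 with oxaliplatin. Among secondary genes, Ngp over Camp was 3.41 to 3.52 with vehicle and 3.42, 3.21, 2.67, 3.27 and 3.60 with oxaliplatin. Ltf over Camp was 2.36 to 2.55 with vehicle and 2.14, 1.60, 1.22, 2.13 and 2.33 with oxaliplatin, below every vehicle-treated mouse in 5 of 5 treated mice. Of the 4 ratios, Ltf over Camp and Ctsg over Elane separated the groups, and Elane over Prtn3 and Ngp over Camp overlapped. The Ctsg over Elane result largely follows from the single genes, Ctsg being above the vehicle range in 5 of 5 treated mice and Elane below it in 4. Among single tested genes 24.9% separated the groups, and the share of gene pairs that do so was not counted. These ratios were looked at after the values of the single genes and are given without a test.

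Lists of 43 other genes of the same stages were examined in the same fit. Of 10 other primary-stage genes, 0 were called; the largest shift among them was that of Fcnb (ficolin B), at 227 ± 13.4 CPM with vehicle and 154 ± 19.9 CPM with oxaliplatin (log2 fold change -0.56, edgeR adjusted p = 8.5e-04). Ms4a3 (0.54), Ctsc (0.48), Gusb (0.44) and Srgn (0.37) had an adjusted p under 0.05 in the other direction at sizes under 1.5-fold, and these 5 are named after their values were seen. With DESeq2, Ms4a3 passed the fold limit and was called higher (log2 fold change 0.59, DESeq2 adjusted p = 3.31e-04). Ctsc encodes cathepsin C, which activates the granule serine proteases, and Srgn encodes serglycin, the proteoglycan that packs them. Of 13 other secondary-stage genes, 1 was called, and of 20 other late genes, 1 was called, both higher, against 11.6% of tested genes called higher and 11.8% called lower. The median log2 fold change was 0.28 over the primary-stage list, 0.077 over the secondary-stage list and -0.11 over the late list.

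The secondary-stage gene called was Hp, which encodes haptoglobin, a hemoglobin-binding protein stored in specific granules. It was at 326, 399.5, 403, 439.0 and 439.1 CPM in vehicle-treated mice and at 1254, 794, 1049.9, 1131 and 879.6 CPM in oxaliplatin-treated mice. It was thus high in treated mouse 3 as well as in mouse 5, unlike Ltf, Camp, Ngp and Mmp8. The difference was 1.35 on the log2 scale (95% interval 1.04 to 1.65, edgeR adjusted p = 1.19e-05). Adipocytes also make haptoglobin, and 7 of 7 adipocyte markers were called higher, with a summed level of 103 to 175 CPM with vehicle and 526 to 2520.4 CPM with oxaliplatin; their part in the Hp result was not tested. The late gene called was Cxcl2, a neutrophil-attracting chemokine, at 0.244 ± 0.0664 CPM with vehicle and 1.09 ± 0.579 CPM with oxaliplatin (log2 fold change 2.13, edgeR adjusted p = 0.00216). Its vehicle values, 0.175 to 0.315 CPM, were near the floor. With at least 10 counts required in every library, Cxcl2 fell out of the test.

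The arrangement of the mice seen in the granule genes was shared by most genes of the later stages. Treated mouse 3 was below every vehicle-treated mouse for 11 of 13 other secondary-stage genes and 19 of 20 other late genes, compared with 40.8% of all tested genes. Treated mouse 4 was below every vehicle-treated mouse for 11 of 13 and 16 of 20, compared with 34.3%. Treated mouse 5 was above every vehicle-treated mouse for 13 of 13 and 16 of 20, compared with 29.3%. The primary-stage list was not arranged in this way, with 5 of 10 genes above and 3 of 10 below the vehicle range in mouse 3. Among abundant examples, Lcn2 (lipocalin 2) was at 1451 to 1809 CPM with vehicle and at 2428, 2200.3, 566, 894 and 2903 CPM with oxaliplatin. Chil3 (a chitinase-like protein) was at 786 to 1022 CPM with vehicle and at 2180.2, 2081, 304, 436 and 2766 CPM with oxaliplatin. The median SD ratio was 6.38 over the other secondary-stage genes, 5.13 over the other late genes and 2.59 over the other primary-stage genes.

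**Figure D5:**
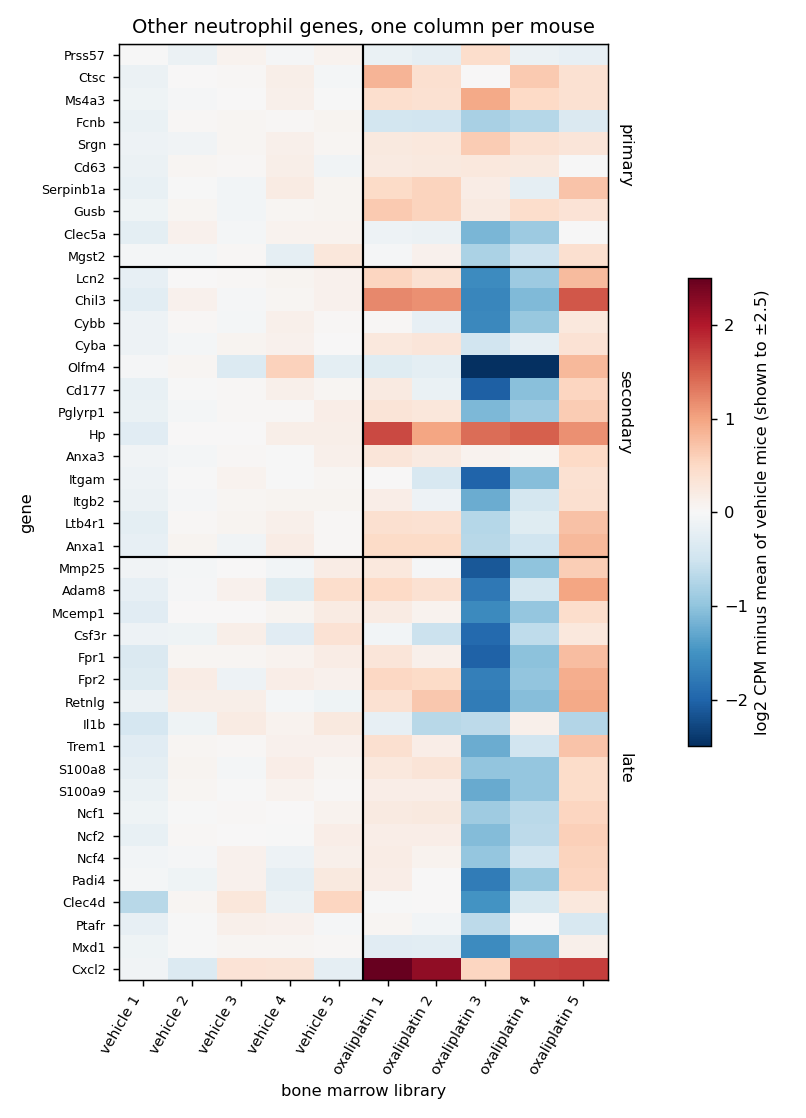
Log2 CPM minus the mean of the 5 vehicle-treated mice (colour, red above and blue below, shown to ±2.5) for 42 of the 43 other neutrophil genes in rows, grouped by stage, and the 10 bone marrow libraries in columns. Columns of treated mice 3 and 4 are blue in most secondary and late rows and the column of treated mouse 5 is red; Hp and Cxcl2 are red in all 5 treated columns and Fcnb is blue in all 5.

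Of the transcription factors and the cytokine listed for granulopoiesis, 7 of 8 were tested and 1 was called, against 23.3% of all tested genes. Cebpa, which encodes C/EBPα and is needed for commitment to the granulocyte lineage, was at 88.0, 96.0, 95.3, 107 and 106 CPM with vehicle. With oxaliplatin it was at 262, 208, 248, 265 and 151 CPM, above all vehicle-treated mice in 5 of 5 (log2 fold change 1.21, 95% interval 0.90 to 1.51, edgeR adjusted p = 3.16e-05). Full separation in either direction held for 24.9% of tested genes. Adipocytes also use C/EBPα, and the adipocyte sum given above moved in the same direction, with treated mouse 5 the lowest of the treated mice in both; its part was not tested. Cebpe, which encodes C/EBPε, was at 93.6 to 118 CPM with vehicle and at 106, 110.4, 65.1, 67.3 and 116 CPM with oxaliplatin (log2 fold change -0.24, edgeR adjusted p = 0.291). Spi1, which encodes PU.1, was at 209 to 258 CPM with vehicle and at 281, 256, 162, 191 and 299 CPM with oxaliplatin (log2 fold change 0.026, edgeR adjusted p = 0.920). Both Cebpe and Spi1 were below the vehicle range in treated mice 3 and 4. Gfi1, a repressor of monocyte genes in granulocyte precursors, was at 58.7 ± 3.74 CPM with vehicle and 65.1 ± 6.35 CPM with oxaliplatin (log2 fold change 0.15, edgeR adjusted p = 0.220). Cebpb, used in emergency granulopoiesis, had a log2 fold change of 0.57 (edgeR adjusted p = 0.00985), just under 1.5-fold.

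Genes whose pattern over the 10 marrow libraries lay closest to each stage were found by the root mean square difference between centred log2 CPM values, among the 14639 genes whose average log2 CPM reached 1. Closest to the primary genes were Tamm41 (0.069), Usp31 (0.078) and Bysl (0.083), where the median over all genes compared was 0.373. Closest to the secondary genes were Ly6g (0.091), Cd177 (0.102) and Slco4c1 (0.108), against a median of 0.762. Closest to the late genes were Nfam1 (0.088), Apobr (0.090) and Rab11fip4 (0.091), against a median of 0.655. The primary genes themselves lay at 0.093 (Mpo) to 0.212 (Ctsg) from the mean of their stage, all farther than Tamm41, Usp31 and Bysl. The secondary genes lay at 0.099 (Ngp) to 0.253 (Mmp8) from theirs, and both late genes at 0.056. Ly6g and Cd177 encode surface proteins of neutrophils. Ly6g was at 52.6 to 64.8 CPM with vehicle and at 54.4, 64.6, 15.4, 26.8 and 78.1 CPM in the treated mice, the arrangement seen in Ngp. These distances describe 10 libraries, share the same scaling and were not tested.

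Genes that neighbour the granule genes in the genome were measured in the same libraries. A few of them are given here, and 23.3% of all tested genes in marrow were called. Cfd, which encodes the adipocyte protein adipsin and begins 2638 bases downstream of Elane, was at 6.97 ± 3.68 CPM with vehicle and 702 ± 451 CPM with oxaliplatin (log2 fold change 6.65, edgeR adjusted p = 4.14e-05). It was at 1106, 309, 980.3, 992 and 124 CPM in the treated mice, while Elane was below the vehicle range in 4 of them. Near Ctsg on chromosome 14, the basophil protease gene Mcpt8 went from 28.0 ± 4.89 to 12.8 ± 7.02 CPM (log2 fold change -1.13, edgeR adjusted p = 0.0144). The mast cell protease gene Mcpt4, 37568 bases away, was at or under the floor in the vehicle-treated mice and at 7.55, 1.60, 0.466, 2.18 and 0.539 CPM in the treated mice. Mast cells can also express Ctsg, and of 9 mast cell markers tested, 3 were called higher and 2 lower. Those called higher were the protease genes Cma1, Mcpt4 and Tpsb2, which were at or under the floor in every vehicle-treated mouse and above it in 5 of 5 treated mice, Cma1 at 0.466 to 7.49 CPM and Tpsb2 at 0.757 to 9.10 CPM. Those called lower were Hdc, at 92.9 to 134 CPM with vehicle and 56.4 to 93.5 CPM with oxaliplatin, and Ms4a2, at 6.77 to 10.01 CPM and 2.10 to 7.03 CPM, both of which basophils also express. The summed level of the list, most of it from Hdc and Kit, was 247 to 293 CPM with vehicle and 186 to 257 CPM with oxaliplatin, whereas its mean log2 CPM was 1.46 to 1.83 with vehicle and 2.44 to 3.80 with oxaliplatin. The part of mast cells in the Ctsg levels was not tested.

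Other lineages in the same libraries give the setting of these levels. All 10 erythroid markers were called lower, with a summed level of 25064 to 42969 CPM with vehicle and 3520 to 8029.6 CPM with oxaliplatin. Eosinophils, which also carry granules, had 8 of 9 markers called lower, from 2005 to 2379 CPM down to 452 to 1202 CPM. Of 8 monocyte markers, 2 were called higher and 2 lower, and of 9 macrophage markers, 4 were called higher and 2 lower. Over all tested genes, 11.6% were called higher and 11.8% lower. The summed monocyte level was 1055 to 1277 CPM with vehicle and 1827, 1436, 949, 1301 and 1509 CPM with oxaliplatin, lowest in treated mouse 3. In erythroid markers treated mouse 3 lay between the other treated mice at 5572 CPM. It was the lowest treated mouse for the summed eosinophil (452 CPM) and macrophage (1180 CPM) markers. For megakaryocyte (3034 CPM) and muscle (701 CPM) markers it was the highest. The part of these lineages in the levels of the granule genes was not tested.

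In kidney the granule genes were near or under the floor. Mmp9 alone passed the filter, and it was not called, whereas 11.5% of the 19293 genes tested in kidney were. Mmp9 had 12, 10, 13, 6 and 14 counts with vehicle and 12, 23, 22, 30 and 8 counts with oxaliplatin, means of 0.440 ± 0.136 and 0.658 ± 0.321 CPM (SD, n = 5; log2 fold change 0.57, 95% interval -0.28 to 1.42, edgeR adjusted p = 0.307). Ctsg had 0 counts in all 10 kidney libraries, which allows up to 0.0900 to 0.130 CPM. Mpo had 0 counts in the 5 vehicle-treated kidneys and at most 3 in a treated kidney. The other primary and secondary genes had at most 8 counts (Prtn3) and 17 counts (Ltf) in any kidney library. Cxcr2 differed from them, with 4, 0, 2, 6 and 0 counts with vehicle and 7, 9, 7, 10 and 28 counts with oxaliplatin. The groups did not overlap, but the closest libraries had 6 and 7 counts, a gap within counting error. Among genes that passed the filter in kidney, 20.7% had groups that did not overlap. It was under the filter and thus untested in the main comparison; with no filter beyond 1 count, edgeR gave a log2 fold change of 2.02 (adjusted p = 0.0202), and DESeq2 gave 2.05 (adjusted p = 0.0270).

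The other stage genes varied widely in level in kidney, and some were abundant there. With vehicle, Cd63 was at 642 ± 24.6 CPM and Cyba at 484 ± 32.7 CPM (SD, n = 5). Of the 24 other stage genes tested there, 6 were called higher and 1 lower, against 11.5% of all genes tested in kidney. The gene called lower was Gusb, from 74.6 ± 12.3 to 32.6 ± 4.62 CPM (log2 fold change -1.19, edgeR adjusted p = 1.02e-05). Cyba, Cd63 and Cybb were also lower at an adjusted p under 0.05, and Ctsc and Anxa3 higher, all under 1.5-fold. Lcn2, a gene that injured tubules also express, went from 1.51 ± 0.207 to 6.29 ± 2.77 CPM (log2 fold change 2.06, edgeR adjusted p = 1.31e-04). Hp went from 0.786 ± 0.260 to 5.06 ± 3.71 CPM (log2 fold change 2.67, edgeR adjusted p = 0.00308), and Padi4, which citrullinates histones in neutrophils, from 0.103 ± 0.0754 to 0.545 ± 0.164 CPM (log2 fold change 2.35, edgeR adjusted p = 0.00237). Adipocyte markers were also higher in kidney, 5 of 6 tested being called, and their part in these values was not tested.

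The difference between the response of marrow and that of kidney was tested directly in the 20 libraries. By an adjusted p under 0.05, 0 of 10 granule genes differed, against 30.1% of 24321 genes (edgeR quasi-likelihood test of the interaction, Benjamini-Hochberg adjustment), with 1 of 10 under 0.05 without adjustment and 1 of 10 by DESeq2. In both cases the gene was Cxcr2, with a marrow response 2.21 lower than the kidney response on the log2 scale (95% interval -4.09 to -0.33, edgeR adjusted p = 0.0707). Its adjusted p was under 0.05 in DESeq2 (adjusted p = 0.0118), with a covariate of Y-linked genes (0.0143), with the replicate block (0.0444) and without oxaliplatin-treated marrow 3 (0.0417), oxaliplatin-treated marrow 5 (0.0487) or vehicle-treated kidney 4 (0.0465). It was farther from 0.05 with no filter beyond 1 count (edgeR adjusted p = 0.154), without vehicle-treated kidney 2 or 5 (0.129 and 0.131) and without oxaliplatin-treated kidney 5, the library with 28 Cxcr2 counts, where the difference was -1.72 (edgeR adjusted p = 0.205). For Mmp9 the difference was -0.61 (95% interval -1.78 to 0.56, edgeR adjusted p = 0.448). With so few kidney counts, differences for the other 8 genes were not detectable at this depth.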

How the data were processed

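The authors deposited raw read counts per gene for 10 bone marrow and 10 kidney libraries, made per the labels and the study's methods by alignment with STAR and counting of uniquely aligned, unambiguous reads, without normalization. The methods name a SMARTer kit and the labels name removal of ribosomal RNA with random priming; strand use is not given in the sources used here. Each table held 287 lines that repeated an identifier with the same values and 1 line that lacked a value, and these were dropped. Genes were filtered with filterByExpr (minimum count 10), scaled by TMM and tested with edgeR 4.0.16 (robust quasi-likelihood, two-sided; limma 3.58.1, R 4.3.3); DESeq2 1.42.0 was an alternative. Log2 CPM used a prior count of 2. Total counts ranged from 30660153 to 41140527 in marrow and from 24393007 to 30925430 in kidney. Gene positions are from GENCODE on GRCm38. The granule genes and the other lists were chosen with earlier results of these data known. Named were all 10 granule genes, for the other stage lists and the transcription factors up to 3 called rises and 3 called falls, the 3 closest genes per stage, genomic neighbours, and markers that bear on a granule gene; Lcn2, Chil3, Fcnb and the other genes not called were named after their values were seen. Replicates are labelled as separate samples of a group, and no 2 libraries of a group agreed within sampling noise (chi-square over its degrees of freedom at least 7.51). The steps were tested on simulated data in which both groups had the same spread and the planted changes were larger than those of the granule genes. The simulation therefore did not check the test at the unequal spread and small shifts seen here. Alternatives changed the scaling, filter, tool, covariates, threshold and libraries. A single gene of the late list is counted but not reported by name here. Proteins were not used here. Figures were drawn with matplotlib 3.10.9 in Python 3.11.15.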

Additional observations from a re-analysis of the deposited data

Results flagged for a closer look

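In groups of 5 mice, a value was singled out where its gap to the nearest mouse exceeded 0.71 of the group's range, and 8 of 41 groups met this. For normally distributed values chance gives this in about 1 of 20 groups. That rate does not hold for kidney groups of very few counts. Where 1 library alone has counts, as for Ngp and Mmp8 below, the rule is met by itself. The 8 of 41 is thus not to be set against 1 of 20. In bone marrow these were Elane in oxaliplatin-treated mouse 3, at 826 CPM, and Ltf in vehicle-treated mouse 1, at 3534 CPM. The other 6 were in kidney and rest on few counts: Cxcr2 in oxaliplatin-treated mouse 5 (0.840 CPM, 28 counts), Prtn3 in vehicle-treated mouse 4 (0.282 CPM, 7 counts), Camp in oxaliplatin-treated mouse 2 (0.168 CPM, 5 counts), Ngp in vehicle-treated mouse 5 (0.162 CPM, 4 counts), Mmp8 in vehicle-treated mouse 3 (0.0864 CPM, 2 counts) and Mmp8 in oxaliplatin-treated mouse 4 (0.140 CPM, 4 counts).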

How the results depend on the processing

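The number of granule genes called in marrow was 0 in 7 of 10 other settings. It was 1 (Ctsg) with library size alone, 1 (Ctsg) with no fold change limit, and 5 with a covariate of Y-linked genes, which called Ctsg higher and Ltf, Camp, Ngp and Mmp8 lower (log2 fold changes -1.20, -0.75, -0.91 and -1.38). All 20 libraries held at least 396 counts of each Y-linked gene; their mean log2 CPM was lowest in oxaliplatin-treated marrow 5 at 4.61, against 5.00 to 5.29 in the other treated marrows and 5.27 to 5.42 with vehicle. With single libraries left out the number was 0 to 1 (1 without oxaliplatin-treated mouse 2 or 5). In kidney it was 1 (Cxcr2) with no filter beyond 1 count and 1 with DESeq2, and 0 to 0 with libraries left out. For the interaction it was 1 (Cxcr2) with the replicate block, 1 with the Y-linked covariate, 1 with DESeq2 and 0 to 1 with libraries left out.

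Other neutrophil genes called in marrow numbered 2. The number was 3 with DESeq2 size factors and 3 with DESeq2, Ms4a3 being added in both. It was 5 with library size alone, 1 with at least 10 counts in every library, 11 with the Y-linked covariate and 7 with no fold change limit. With libraries left out it was 2 to 5 (5 without oxaliplatin-treated mouse 5). Those called lower numbered 0, and 8 with the Y-linked covariate, 1 with no fold change limit and 0 to 2 with libraries left out (1, Fcnb, without vehicle-treated mouse 1 and 2 without oxaliplatin-treated mouse 5). The cause of these changes was not tested.

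Direction changed for Mpo with library size alone (log2 fold change 0.083) and the Y-linked covariate (0.069), and with libraries left out it ran from -0.18 to 0.017 (above 0 without oxaliplatin-treated mouse 5). For Prtn3 it changed with limma voom and sample quality weights (-0.13), a setting chosen after seeing the data, and with libraries left out it ran from -0.11 to 0.24 (below 0 without oxaliplatin-treated mouse 3). For Mmp9 it changed with library size alone (0.056) and limma voom (0.018), and ran from -0.28 to 0.12 (above 0 without oxaliplatin-treated mouse 3 or 4). For Cxcr2 it ran from -0.36 to 0.037 (above 0 without oxaliplatin-treated mouse 3). Library size alone moved the median log2 fold change of all tested genes from -0.038 to 0.11. The treated minus vehicle mean of secondary minus primary was -0.62 and ran from -0.92 to -0.14 with libraries left out; late minus primary was -0.35 and ran from -0.61 to 0.11, the last without oxaliplatin-treated mouse 3.

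The replicate block left 0 granule genes called in marrow and in kidney. Samples sharing a number did not deviate together (r of -0.118 to 0.228 in marrow and -0.154 to 0.0754 in kidney), so the numbers were not taken as pairs. With 5 mice per group and a wide spread after oxaliplatin, shifts of the secondary and late genes smaller than their intervals were not detectable.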

Other observations

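Some genes beside the granule genes in the genome changed in marrow while the granule gene did not pass the test. Of all tested genes in marrow, 23.3% were called, so called neighbours are common anywhere. The genes named here are a selection, and the share of neighbours called was not compared with that figure. Ccrl2, a chemerin-binding receptor 11719 bases from Ltf, fell from a mean of 21.3 CPM with vehicle to 6.99 ± 0.887 CPM with oxaliplatin (SD, n = 5; log2 fold change -1.61, edgeR adjusted p = 1.09e-06), and every treated mouse was below every vehicle-treated mouse. Groups that did not overlap, in either direction, were found for 24.9% of tested genes. Mmp27, the metalloproteinase gene next to Mmp8 at 2911 bases, rose from 3.05 ± 0.510 to 6.74 ± 2.80 CPM (log2 fold change 1.14, edgeR adjusted p = 0.00766). Tns1, which encodes the focal adhesion protein tensin 1 and lies 29540 bases from Cxcr2, rose from 225 ± 16.2 to 383 ± 74.8 CPM (log2 fold change 0.77, edgeR adjusted p = 5.77e-04). Cxcr1, the other chemokine receptor gene of that region, was at 1.71 ± 0.524 CPM with vehicle and 2.63 ± 0.481 CPM with oxaliplatin (log2 fold change 0.62, edgeR adjusted p = 0.0769).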
